A study of Mus musculus with 14 samples.

Results

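The libraries described here are pieces of mouse colon that differ in how much of the hindgut gene Hoxb13 they contain. Hoxb13 was read in CPM, its count times 1000000 divided by the library's total count. The members were chosen by this measured value. Libraries with at least 300 CPM are called distal, and libraries with 30 to under 300 CPM are called middle. Of 14 libraries in the series, 11 fall in these classes, with 4 distal and 7 middle. The other 3 had less than 30 CPM and are given beside the comparison. The classes come from this measurement and not from the labels, which name the tissue only as colon. The p-values therefore describe libraries sorted by Hoxb13, and no Hox gene is counted among the results.

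Every library came from the colon of wild-type mice, given either phosphate-buffered saline (PBS) or the gut bacterium Bacteroides thetaiotaomicron by gavage, that is by tube into the stomach. The labels give no age, time after gavage or place along the colon, and do not say whether a sample is 1 animal or a pool. PBS samples 1, 3 and 5 and B. thetaiotaomicron sample 3 were distal. PBS samples 2, 6 and 7 and B. thetaiotaomicron samples 1, 5, 6 and 7 were middle, and PBS sample 4 and B. thetaiotaomicron samples 2 and 4 lay under 30 CPM. Below, the 4 distal values always stand in the order PBS 1, 3, 5 and B. thetaiotaomicron 3, and the 3 lowest libraries in the order PBS 4, B. thetaiotaomicron 2 and 4.

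Along the gut, each segment keeps a record of its position in the set of Hox transcription factors it transcribes. Genes at the 5′ ends of the Hox clusters, such as Hoxb13 and Hoxd13, mark the end of the hindgut. The proximal mouse colon carries thick mucus and many secretory cells, while the distal colon recovers sodium through the epithelial sodium channel under the control of aldosterone, and its wall holds lymphoid follicles. Hoxb13 lies on the plus strand of chromosome 11 at chr11:96194316-96197447 (GRCm38, GENCODE M21).

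Promoters of 4 genes that the results turn on are shown first, because 2 of them are higher and 2 lower in the distal libraries. Each runs from 250 bases before to 50 bases after the gene's start and is taken from RefSeq on GRCm38.p6. Wfdc2, which encodes a secreted protease inhibitor, is at chr2:164562465-164562764 (plus strand), and Evx2, a homeobox gene beside the Hoxd cluster, is at chr2:74659508-74659807 (minus strand). Muc2, the gel-forming mucin of colonic mucus, is at chr7:141690090-141690389 (plus strand), and Fabp2, an intracellular fatty acid carrier, is at chr3:122894822-122895121 (plus strand). Capitals mark the letters CAATAAA on either strand, reported as a preferred sequence of posterior Hox proteins, and the related letters TCGTAAA were searched as well. The genes were picked after the match was seen.
Wfdc2: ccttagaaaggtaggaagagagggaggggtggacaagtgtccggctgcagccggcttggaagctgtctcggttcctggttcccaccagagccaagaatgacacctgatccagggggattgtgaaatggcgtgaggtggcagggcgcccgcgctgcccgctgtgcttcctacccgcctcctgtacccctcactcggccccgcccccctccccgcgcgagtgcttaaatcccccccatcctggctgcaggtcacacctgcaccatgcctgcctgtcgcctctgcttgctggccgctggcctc
Evx2: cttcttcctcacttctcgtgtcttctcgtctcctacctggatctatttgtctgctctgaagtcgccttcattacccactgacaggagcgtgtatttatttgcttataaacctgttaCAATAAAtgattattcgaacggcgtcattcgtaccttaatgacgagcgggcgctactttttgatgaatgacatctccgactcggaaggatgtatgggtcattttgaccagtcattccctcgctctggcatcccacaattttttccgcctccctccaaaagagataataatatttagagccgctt
Muc2: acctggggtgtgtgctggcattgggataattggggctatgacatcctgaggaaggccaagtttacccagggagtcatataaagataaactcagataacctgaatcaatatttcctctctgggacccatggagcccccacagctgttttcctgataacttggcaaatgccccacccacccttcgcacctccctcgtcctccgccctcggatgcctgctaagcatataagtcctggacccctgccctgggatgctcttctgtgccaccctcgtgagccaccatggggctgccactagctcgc
Fabp2: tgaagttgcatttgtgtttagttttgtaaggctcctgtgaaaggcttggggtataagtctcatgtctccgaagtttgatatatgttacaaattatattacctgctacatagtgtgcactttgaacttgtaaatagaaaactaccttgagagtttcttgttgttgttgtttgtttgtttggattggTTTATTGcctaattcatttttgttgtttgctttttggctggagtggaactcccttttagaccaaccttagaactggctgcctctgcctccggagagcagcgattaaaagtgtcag
CAATAAA occurs once each in Evx2 and Fabp2 and not in these stretches of Wfdc2 and Muc2. TCGTAAA occurs in none of the 4. Of 32851 promoters of this length, 4.60% hold CAATAAA, 0.597% hold TCGTAAA and 5.15% hold either. A match is a run of letters, not a measured binding site.

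Hoxb13 stood at 396, 474, 417 and 368 CPM in the distal libraries. The middle libraries ran from 53.7 in PBS sample 2 to 263 in B. thetaiotaomicron sample 7, with a median of 101, and the lowest libraries held 0.199, 4.32 and 22.2. The values on either side of the upper limit were thus 368 and 263, and on either side of the lower limit 53.7 and 22.2. Hoxd13 was 80.5, 218, 6.55 and 27.9 CPM in the distal libraries, 0.513 to 12.8 in the middle ones and 0 in all 3 lowest. The distal libraries were therefore unlike one another in Hoxd13, with PBS sample 5 inside the middle range. Hoxb6, a gene of more anterior segments, was 1.0 to 1.26 CPM in the distal libraries and 1.96 to 4.37 in 6 middle ones, but 26.2 in PBS sample 7. It was 65.4, 29.7 and 9.69 in the lowest libraries. PBS sample 7 was middle by Hoxb13 and resembled the lowest libraries in Hoxb6.

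**Figure D1:**
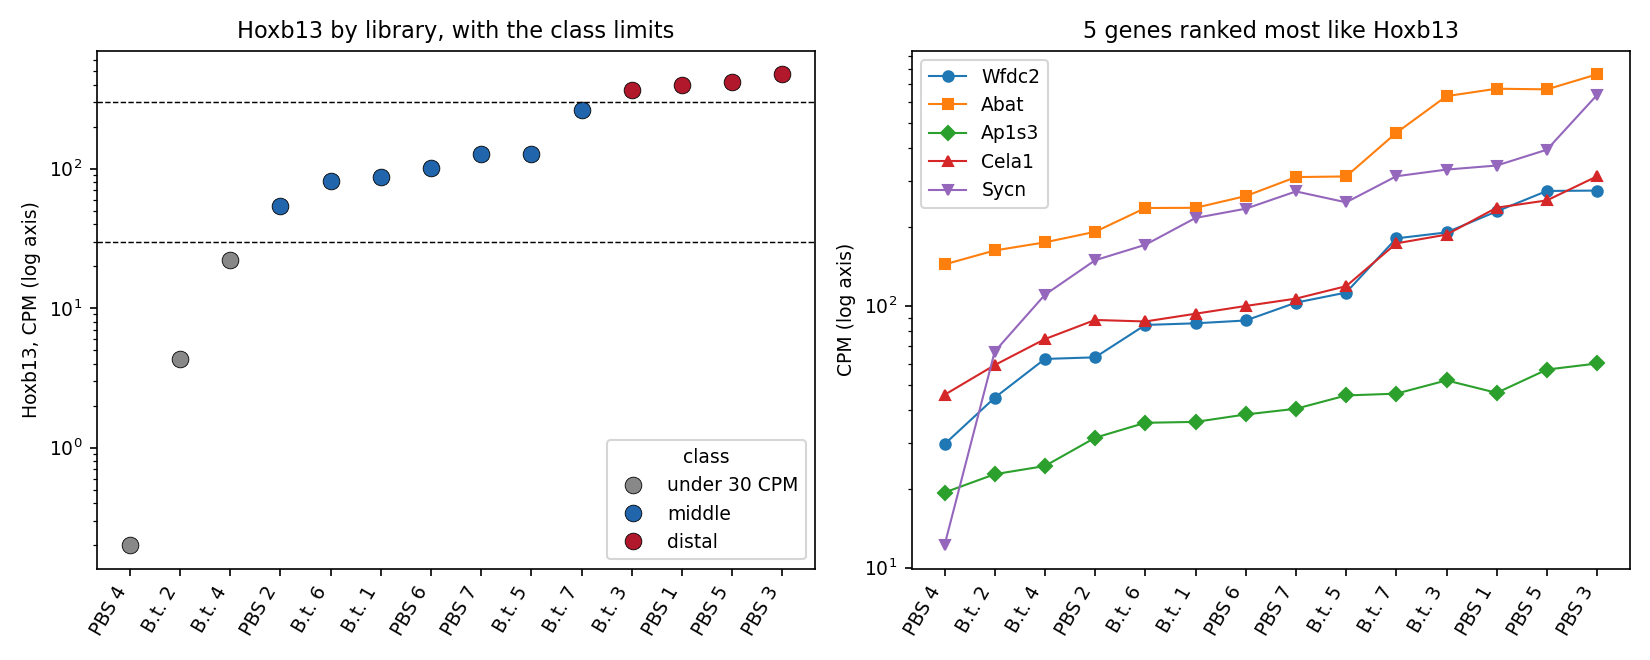
Left, Hoxb13 in CPM (log axis) for each of the 14 libraries, ordered by Hoxb13, with dashed lines at the class limits of 30 and 300 CPM; right, the 5 genes whose CPM ranked most like Hoxb13 in the same order. B. thetaiotaomicron sample 7 (263 CPM) lies nearest below the upper limit.

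The distal libraries differed from the middle ones in many genes. With gavage as a covariate, 2769 of 14264 genes other than Hox genes passed an adjusted p of 0.05 in edgeR's quasi-likelihood test, which is 19.4% of those tested. Of these, 1363 (9.56%) were higher in the distal libraries and 1406 (9.86%) were lower. With libraries scaled by their totals alone the split was 1078 higher and 1788 lower. The differences were mostly moderate: the median absolute change of the passing genes was 0.505 on the log2 scale. Of them, 272 rose by at least 1 and 300 fell by at least 1. The signed median over all genes was -0.01, which scaling holds near 0. Counts of list members below stand against these shares of 9.56% higher and 9.86% lower. A list near them shows no more than the genes at large. All fold changes below are log2, distal minus middle, ± standard error.

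Library totals were 13150140 to 16781708 counts, and the classes did not differ in them (14788252 ± 1432068, SD, n = 4, and 15050972 ± 1265114, SD, n = 7; two-sided exact permutation p = 0.745). Shares of the whole library were not all alike: mitochondrial transcripts took 4.80 ± 0.284% of counts in the distal and 4.14 ± 0.337% in the middle libraries (two-sided exact permutation p = 0.0121). The permutation tests had no gavage term, and 3 of 4 distal but 3 of 7 middle libraries were PBS. Class and gavage are therefore mixed in that p. Among the 12 tested mitochondrial transcripts, 4 rose, mt-Nd5 by 0.25 ± 0.06 (adjusted p = 0.0134). Leaving out PBS sample 2, 5 or 6 or B. thetaiotaomicron sample 3 left 2 of the 4, and the last moved mt-Nd5 to an adjusted p of 0.0688. Their part in the other results was not tested. The batch label is the same in every sample, so batches could not be compared. In whole tissue, fewer cells of a type and less RNA per cell cannot be told apart.

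The most certain rises were modest in size. Pag1, a membrane adaptor of Src-family kinases, was 56.0, 54.8, 58.5 and 54.1 CPM in the distal libraries against 32.6 to 38.4 (median 36.6) in the middle, a rise of 0.65 ± 0.07 (adjusted p = 6.36e-05). Ace, angiotensin-converting enzyme, was 65.5, 72.0, 71.1 and 76.4 CPM against 37.2 to 52.3 (median 41.5), a rise of 0.81 ± 0.08 (adjusted p = 6.67e-05). Myo5c, a myosin motor of secretory vesicles, was 331, 312, 328 and 276 CPM against 160 to 215 (median 185), a rise of 0.74 ± 0.08 (adjusted p = 7.32e-05). No distal library overlapped a middle one in any of these 3 genes. The share of all tested genes without overlap is not given here. Lack of overlap and a small p rest on the same values, so it is no separate support, here or below. The others among the 10 most certain rises were Ndrg3, Tent5c, Fam8a1, Sult1b1, Snx25, Gal3st2b and Cers4, with gains of 0.55 to 1.27. Counts of Sult1b1 and Gal3st2b could be shared with close relatives in the genome.

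Larger differences stood among the falls. Ntrk2, the TrkB receptor for brain-derived neurotrophic factor (chr13:58806569-59133970), was 1.22, 1.02, 0.735 and 0.485 CPM in the distal libraries. Middle libraries held 5.02 to 18.1 CPM (median 9.67) and the lowest ones 37.2, 21.6 and 14.3. Ntrk2 fell by 3.79 ± 0.28 on the log2 scale (adjusted p = 1.40e-05), with a clear gap between the classes. Chn2, a GTPase-activating protein for Rac, was 7.07, 4.09, 6.61 and 6.52 CPM against 17.5 to 30.1 (median 27.6), and fell by 2.11 ± 0.18 (adjusted p = 4.29e-05). Lpo, lactoperoxidase, was 7.91, 6.87, 7.95 and 6.24 CPM against 15.3 to 40.0 (median 30.9), and fell by 2.06 ± 0.18 (adjusted p = 4.29e-05). B. thetaiotaomicron sample 7 was the lowest middle library for Ntrk2, Chn2 and Lpo, and none of the 3 genes overlapped. The remaining 7 of the 10 most certain falls, Akr1c19, Slc17a9, Epha7, Slc6a17, Mfsd6l, Slc12a8 and Nupr1, fell by 0.80 to 2.11.

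By rank over all 14 libraries, Wfdc2 followed Hoxb13 exactly (Spearman 1.0), and Abat, Ap1s3, Cela1 and Sycn came next (0.996 each). Sycn, a secretory granule protein, passed at an adjusted p of 0.0439 and missed without any 1 library but B. thetaiotaomicron sample 7 (adjusted p 0.0509 to 0.0955). These 5 are a description, chosen for the likeness, and all points share the libraries' depth and tissue make-up. Wfdc2 was 229, 275, 274 and 191 CPM in the distal libraries, 63.5 to 181 (median 87.8) in the middle and 29.6, 44.5 and 62.6 in the lowest. Abat, which breaks down the transmitter GABA, was 674, 765, 670 and 631 CPM, then 192 to 457 (median 262), then 144, 163 and 175. Both genes climbed through the 3 classes without overlap, though the highest of the lowest libraries lay near the lowest middle one. They were chosen for following Hoxb13 by rank, and Hoxb13 sets the classes. The lack of overlap between classes is therefore no separate finding for these genes. Cela1, an elastase known from the pancreas, was 237, 312, 252 and 187 CPM against 87.0 to 173 (median 99.8). The pancreatic acinar markers Cpa1, Ctrb1 and Pnlip lay between 0 and 0.0672 CPM in the 11 libraries, while Cela1 alone of that list of 11 passed the filter on low counts.

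Of 14 genes of the epithelial sodium channel and aldosterone pathway, 5 rose (Scnn1a, Scnn1g, Nr3c2 and Atp1b1 among them) and the other 9 did not pass, with a median of 0.30. The rises numbered 3 without PBS sample 1, 2 or 6, and 1 gene fell without PBS sample 7 or B. thetaiotaomicron sample 3, 5 or 7. Scnn1g, the gamma subunit of the channel (chr7:121734479-121768475), was 76.3, 117, 30.9 and 15.4 CPM in the distal libraries. In the middle libraries it was 0.822 to 13.6 (median 8.51), and in the lowest 7.51, 0.142 and 0.750. The classes did not overlap, but the distal values spread widely and the lowest stood close to the highest middle one. Scnn1g rose by 2.43 ± 0.65 (adjusted p = 0.0321), but with PBS 1, 2, 3, 6 or 7 or B. thetaiotaomicron 6 left out the adjusted p was 0.0517 to 0.0914.

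Scnn1b, the beta subunit, was 45.8, 50.8, 25.8 and 15.8 CPM against 4.87 to 22.6 (median 16.5) and did not pass (0.87 ± 0.35, adjusted p = 0.126). With limma-voom it did (adjusted p = 0.0337). Its classes overlapped through B. thetaiotaomicron sample 3. Scnn1a, the alpha subunit, was 203, 187, 217 and 184 CPM against 140 to 171 (median 161), a small rise of 0.37 ± 0.08 (adjusted p = 0.00388) with no overlap. Nr3c2, the mineralocorticoid receptor, rose by 0.43 ± 0.10 (adjusted p = 0.00816) with overlapping values.

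Among 15 genes of electroneutral salt absorption and the carbonic anhydrases, 4 rose and 4 fell (median -0.13). The chloride-bicarbonate exchanger Slc26a3 was 1509, 1802, 1701 and 1542 CPM against 738 to 1286 (median 1044), a rise of 0.77 ± 0.17 (adjusted p = 0.0113). The sulfate transporter Slc26a2 was 1983, 3281, 2631 and 2206 CPM against 712 to 1759 (median 914), a rise of 1.36 ± 0.29 (adjusted p = 0.0113). Neither gene overlapped, and B. thetaiotaomicron sample 7 was the highest middle library in both. Carbonic anhydrases, which interconvert carbon dioxide and bicarbonate, went both ways. Car4, the membrane-bound form of the brush border, was 2063, 1428, 2406 and 1597 CPM against 834 to 1291 (median 1031), a rise of 0.91 ± 0.18 (adjusted p = 0.00584). Car12 was 15, 5.30, 8.42 and 14 CPM against 39.7 to 81.5 (median 65.3), a fall of 2.55 ± 0.34 on the log2 scale (adjusted p = 0.00132). Car8 fell by 2.16 ± 0.22 (adjusted p = 0.000193) and Car13 fell by 0.68 ± 0.08 (adjusted p = 0.000111).

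Car1 did not pass (-0.52 ± 0.55, adjusted p = 0.571). Its values ran from 439 to 1489 CPM in the distal and from 489 to 2611 in the middle libraries. Without PBS sample 7, its highest middle library, the estimate was 0.18. Slc9a3, the main sodium-hydrogen exchanger of the brush border, was 449, 27.4, 608 and 541 CPM against 501 to 1243 (median 881). It did not pass (-1.07 ± 0.69, adjusted p = 0.334), and PBS sample 3 stood far below every other distal library. The estimate was -0.71 without it. Slc9a3 was picked for that value after it was seen.

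Chloride and potassium transport genes split evenly, with 4 of 13 higher and 4 lower (median 0.07). Kcnk6, a leak potassium channel, was 35.7, 31.9, 36.3 and 35.8 CPM against 65.4 to 104 (median 82.6), and fell by 1.21 ± 0.12 (adjusted p = 6.36e-05). Kcne3, the beta subunit of the basolateral potassium channel, rose by 0.53 ± 0.08 (adjusted p = 0.000585). Without PBS sample 1, 2, 3, 6 or 7 or B. thetaiotaomicron sample 1 or 3, only 2 of the 4 falls passed. Atp12a, the colonic proton-potassium pump, was 725, 1184, 1275 and 995 CPM against a median of 295 and a highest value of 606, and 2.46, 5.31 and 21.1 in the lowest libraries. Its classes did not overlap, yet the call was marginal (1.72 ± 0.51, adjusted p = 0.0484) and was lost on leaving out any of 9 libraries (adjusted p 0.0608 to 0.177), every library but B. thetaiotaomicron samples 1 and 7.

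**Figure D2:**
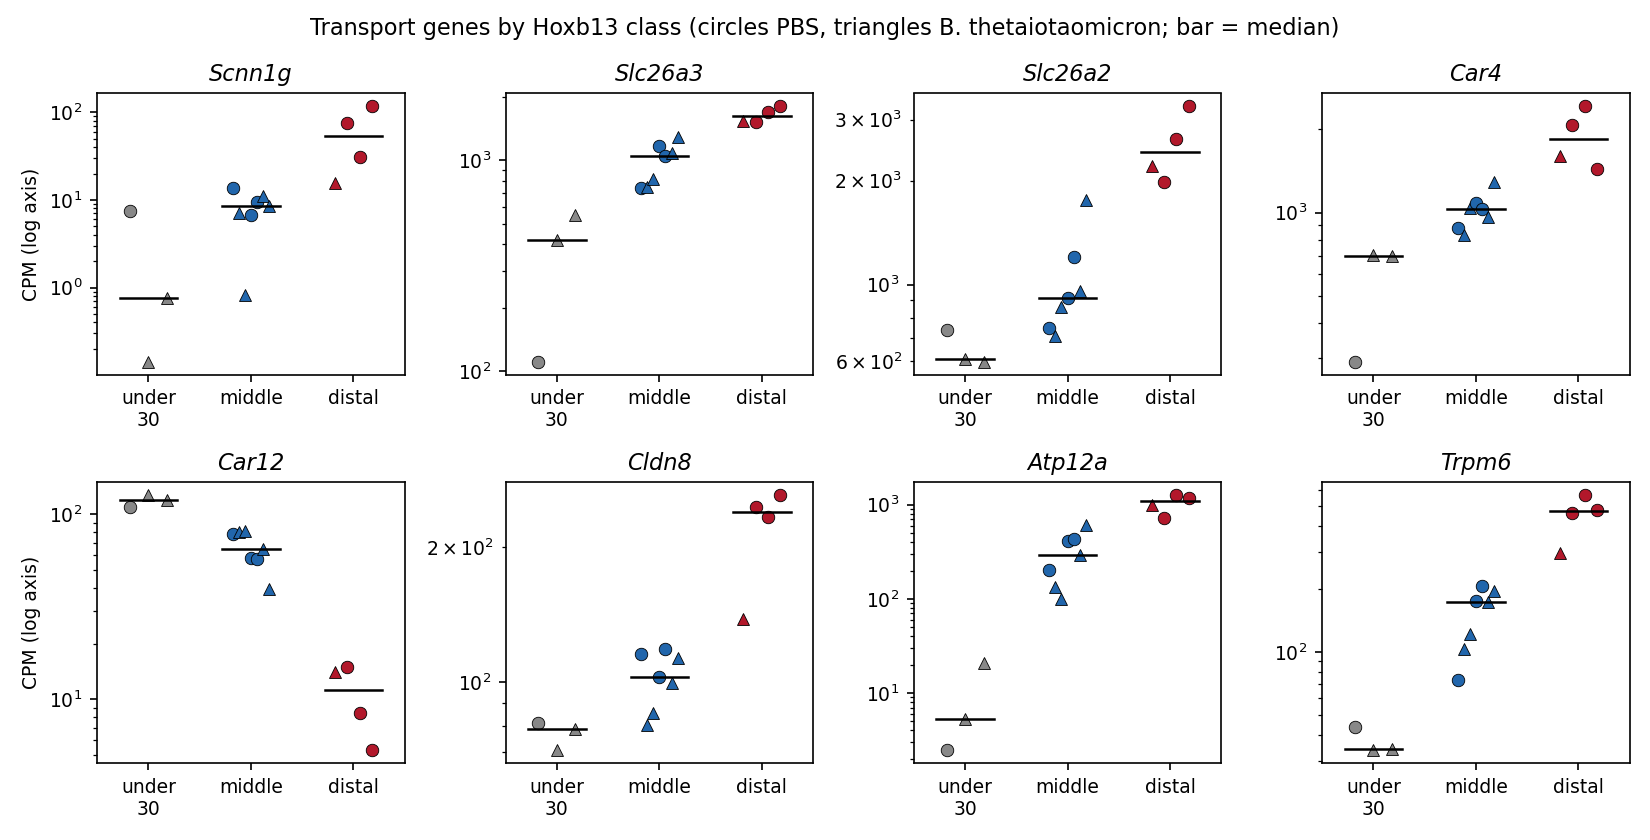
CPM (log axes) of 8 transport genes in each library by class; circles are PBS, triangles B. thetaiotaomicron and bars medians. Scnn1g, Slc26a3, Slc26a2, Car4, Cldn8, Atp12a and Trpm6 are higher and Car12 is lower in every distal library than in every middle one.

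Of 10 claudins, which set the leak between epithelial cells, 2 rose and 3 fell (median 0.03). Cldn8, a sealing claudin that goes with the sodium channel (chr16:88560828-88563183), was 245, 261, 234 and 138 CPM against 80.3 to 118 (median 103). It rose by 0.98 ± 0.12 (adjusted p = 0.000318) without overlap, and B. thetaiotaomicron sample 3 was the nearest distal library to the middle range. Cldn15, a cation-pore claudin, was 65.5, 36.8, 82.1 and 91.9 CPM against 134 to 185 (median 171), and fell by 1.2 ± 0.24 (adjusted p = 0.00790). Cldn12 rose by 0.27, a call lost without B. thetaiotaomicron sample 3 (adjusted p = 0.0506). Among 4 tested aquaporins (median -0.20), the water channel Aqp1 of blood vessels fell by 0.74 ± 0.12 (adjusted p = 0.00138) and was 55.4, 42.2, 47.4 and 57.3 CPM against 76.0 to 110.1. Aqp8 of the surface epithelium rose by 0.51 ± 0.15 (adjusted p = 0.0381) with overlapping values, and 6 single libraries each ended that call (PBS 1, 3, 5 and 7, B. thetaiotaomicron 6 and 7; adjusted p 0.0541 to 0.0927). Aqp4 did not pass (-0.51 ± 0.33, adjusted p = 0.334), and its estimate was -0.27 without PBS sample 3 and -0.73 without PBS sample 5.

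Many mucus genes were lower in the distal libraries. Of 20 goblet cell and mucus genes, 10 fell and 3 rose, with a median of -0.42. Muc2 was 1502, 918, 1141 and 1378 CPM against 2155 to 4954 (median 4360), and 4723, 5376 and 5391 in the lowest libraries. It fell by 1.70 ± 0.25 (adjusted p = 0.00213), and every distal library lay below every middle one. Spdef, the transcription factor that drives goblet cell maturation, was 40.3, 24.0, 31.2 and 25.4 CPM against 73.1 to 123 (median 107), and fell by 1.79 ± 0.19 (adjusted p = 0.000305). Tpsg1 fell by 1.01 ± 0.11 (adjusted p = 7.71e-05). For Muc2 and Spdef the lowest middle library was B. thetaiotaomicron sample 7.

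Retnlb, a secreted goblet cell protein that acts on bacteria (chr16:48816856-48818892), was 11.9, 0.542, 6.55 and 5.41 CPM in the distal libraries. It was 67.7 to 528 (median 115) in the middle and 124, 679 and 691 in the lowest. Retnlb fell by 5.03 ± 0.93 (adjusted p = 0.00704), with no overlap and a wide spread inside both classes. Its counts could be shared with the related Retn genes. Reg4, a secreted lectin-like protein of deep crypt secretory cells, ran the other way: 119.8, 183, 170.4 and 176 CPM against 5.57 to 85.5 (median 14.4), a rise of 3.09 ± 0.68 (adjusted p = 0.0145). Tff3, the trefoil peptide secreted with mucus, was 736, 746, 839 and 602 CPM against 430.0 to 601 (median 504), a rise of 0.49 ± 0.11 (adjusted p = 0.00773). The distal libraries thus held less Muc2 and Spdef and more Reg4 and Tff3, and Reg4 and Tff3 were chosen after their values were seen.

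Enzymes that build mucin glycans were lower as well, 16 of 29 against 3 higher (median -0.37). Gcnt3, which makes the core branches of mucin sugars, was 90.1, 74.9, 80.9 and 75.7 CPM against 151 to 249.6 (median 216), and 544, 354 and 282 in the lowest libraries. It fell by 1.40 ± 0.12 (adjusted p = 6.00e-05) with no overlap. B3gnt6, the core 3 synthase, was 7.60, 0.602, 1.54 and 2.22 CPM against 45.5 to 98.2 (median 67.5), and fell by 4.58 ± 0.57 (adjusted p = 0.00118). A4gnt, which caps gland-type mucins, fell by 3.12 ± 0.30 (adjusted p = 0.000182). The rises were Fut4, B4galnt3 and St3gal6. B4galnt3 was 137, 149.6, 135 and 119 CPM against 29.3 to 87.7 (median 33.9), a rise of 1.76 ± 0.33 (adjusted p = 0.00690), and Fut4 rose by 1.12 ± 0.13 (adjusted p = 0.000364).

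Fut2, which adds the terminal fucose that gut bacteria feed on, was 149, 127, 181 and 163 CPM against 175 to 303 (median 242). It fell by 0.63 ± 0.17 (adjusted p = 0.0261) with overlap, and lost the call without PBS sample 1, 2, 3 or 6 (adjusted p 0.0502 to 0.0653). B4galnt2, which builds the Sda antigen, was 137, 59.1, 141 and 149.6 CPM against 136 to 268 (median 182) and did not pass (-0.66 ± 0.29, adjusted p = 0.150). Without PBS sample 3 the B4galnt2 estimate was -0.44.

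Among 21 antimicrobial and epithelial defence genes, 4 rose and 5 fell (median -0.23). Reg3b, a secreted lectin that binds bacteria, was 0.532, 0.120, 1.27 and 2.08 CPM against 10.4 to 975 (median 231), and 1393, 5303 and 697 in the lowest libraries. It fell by 8.66 ± 1.67 (adjusted p = 0.00840), although limma-voom did not call it (adjusted p = 0.107), and its counts could be shared with Reg3g. Saa3 was 1.60, 0.602, 0.735 and 1.46 CPM against 5.71 to 15.1 (median 9.98), and fell by 3.18 ± 0.34 (adjusted p = 0.000128). The related Saa1 was 2474, 2110.4, 2702 and 1556 CPM against 616 to 1453 (median 1024), a rise of 1.03 ± 0.24 (adjusted p = 0.0166). Saa1 and Saa3 are acute-phase proteins that also bind retinol, and they moved in opposite directions without overlap. Gsdmc4, of the gasdermin family of pore-forming proteins, rose by 1.0 ± 0.19 (adjusted p = 0.00616). The number of falls was 2 or 3 without any 1 of PBS samples 1, 2, 3 and 5 and B. thetaiotaomicron samples 1, 3 and 6. Ang4, a secreted ribonuclease of secretory cells, varied from 1.14 to 31.9 CPM in the distal and from 14.9 to 228 in the middle libraries and did not pass (-2.59 ± 1.29, adjusted p = 0.211). The Ang4 estimate was -1.17 without PBS sample 2 and -3.57 without PBS sample 1.

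**Figure D3:**
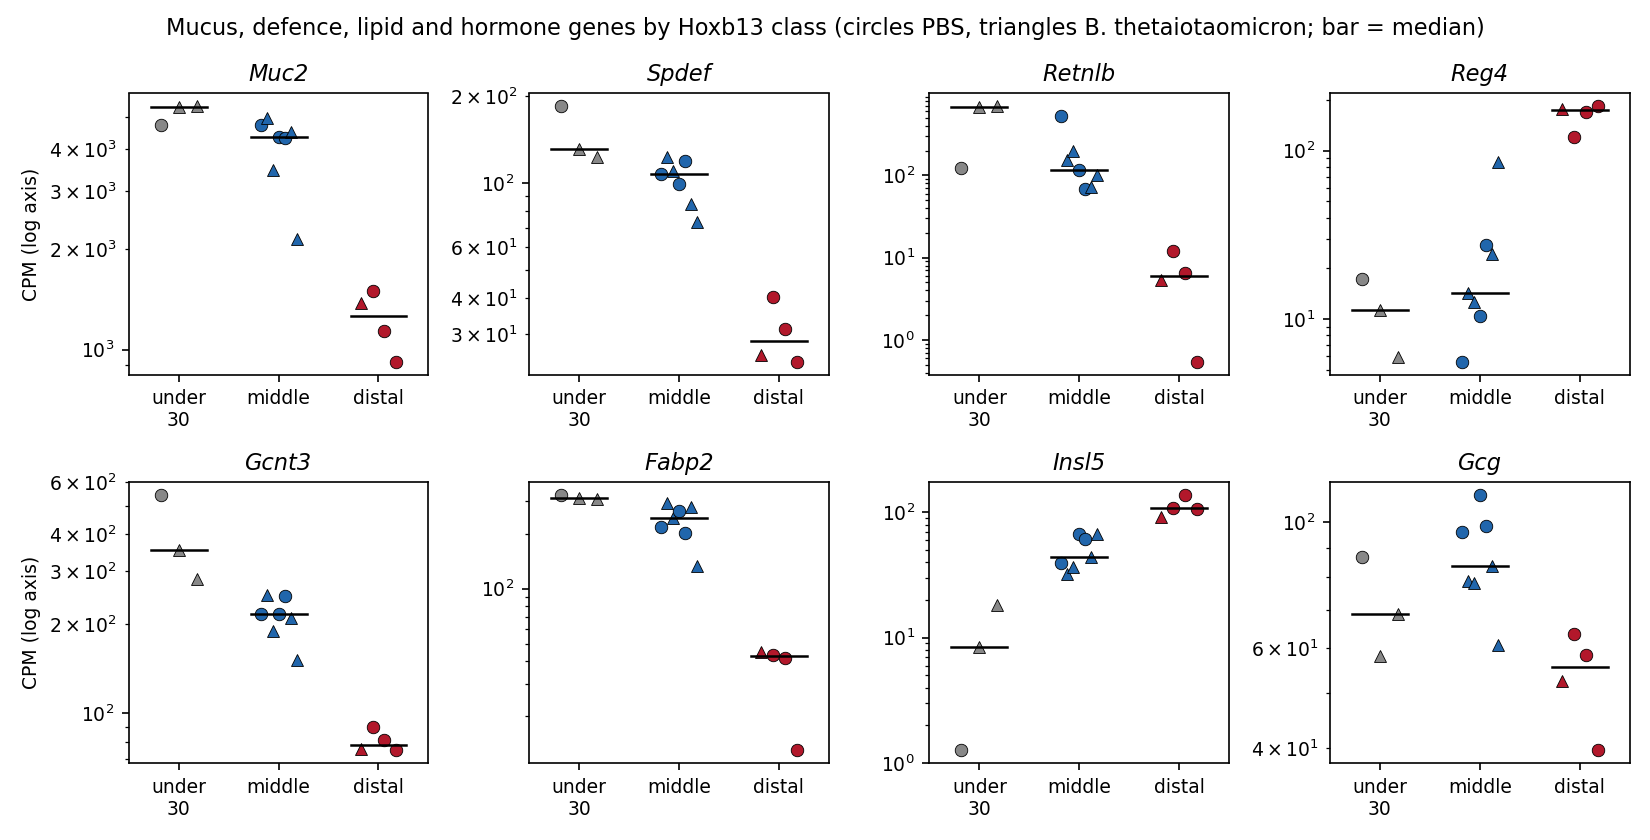
CPM (log axes) of 8 mucus, defence, lipid and hormone genes in each library by class; circles are PBS, triangles B. thetaiotaomicron and bars medians. Muc2, Spdef, Retnlb, Gcnt3 and Fabp2 are lower, and Reg4 and Insl5 higher, in every distal library than in every middle one, while Gcg overlaps.

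Gut hormone genes went both ways, with 3 of 21 enteroendocrine genes higher and 3 lower (median -0.22). Insl5, a hormone of L cells in the hind colon (chr4:103017872-103026842), was 108, 107, 138 and 91.4 CPM against 32.5 to 67.7 (median 43.7), and 1.26, 8.49 and 18.3 in the lowest libraries. It rose by 1.09 ± 0.23 (adjusted p = 0.0101) with no overlap. In the fit of all 14 libraries the adjusted p of Insl5 was 0.0823. Gcg, the glucagon-like peptide precursor of the same cells, was 63.6, 39.7, 58.5 and 52.5 CPM against 60.8 to 112 (median 83.8), and fell by 0.74 ± 0.15 (adjusted p = 0.00654). Pyy, peptide YY, was 179, 213, 189 and 111 CPM against 53.9 to 114 (median 68.7), a rise of 1.06 ± 0.24 (adjusted p = 0.0160). Gcg and Pyy overlapped slightly. The prohormone convertase Pcsk1 fell by 1.33 ± 0.16 (adjusted p = 0.000198) and Cck fell by 1.43 ± 0.29 (adjusted p = 0.00320).

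Tuft cell genes leaned down: 8 of 13 tested members fell, with a median of -0.53, and 1 member rose without B. thetaiotaomicron sample 3. Summed over the list, they made 109 to 126 CPM in the distal and 127 to 168 in the middle libraries. Dclk1, a marker of these chemosensory cells, was 24.6, 24.0, 24.2 and 24.1 CPM against 23.3 to 35.8 (median 35.0), and fell by 0.43 ± 0.10 (adjusted p = 0.00717). Its distal values were nearly equal and lay above that of B. thetaiotaomicron sample 7.

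Stem cell and Wnt target genes gave 2 rises and 5 falls among 17 (median -0.12). Ascl2, a transcription factor of crypt-base stem cells, was 14.1, 11.6, 12.4 and 11.9 CPM against 4.84 to 8.67 (median 6.32), a rise of 1.05 ± 0.15 (adjusted p = 0.000487). Prom1, the membrane protein CD133, was 122, 67.5, 111 and 119 CPM against 246 to 452 (median 382), and fell by 1.80 ± 0.22 (adjusted p = 0.000802). Neither overlapped. Of the 2 rises, 1 remained without PBS sample 2, 5 or 6 or B. thetaiotaomicron sample 1, 3 or 6.

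Of 30 proliferation genes 5 fell and the other 25 did not pass (median -0.30), and this count turned on single libraries. It was 19 without B. thetaiotaomicron sample 3 and 11 without B. thetaiotaomicron sample 5, but 1 without PBS sample 2, 3, 5 or 6, 2 without B. thetaiotaomicron sample 6 and 3 without B. thetaiotaomicron sample 1 or 7. Mki67, a marker of dividing cells, was 147, 188, 153 and 269 CPM against 191 to 266 (median 223). The only distal library given the bacterium was the highest of the 11, and the 3 PBS ones lay below all middle libraries. Mki67 did not pass (-0.17 ± 0.15, adjusted p = 0.500), and without that library it fell by 0.47 (adjusted p = 0.0148). Cdc20, an activator of mitotic exit, was 31.8, 32.1, 30.7 and 51.4 CPM against 47.1 to 57.5 and fell by 0.43 ± 0.12 (adjusted p = 0.0235). Cdc20 lost its call without any 1 of the 6 PBS libraries (adjusted p 0.0507 to 0.0704), and fell by 0.70 without B. thetaiotaomicron sample 3.

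Absorptive colonocyte genes were lower in 9 and higher in 2 of 22 (median -0.10). The rises were Muc3 and Saa1. Among the falls, Emp1 was 227, 107, 98.0 and 166 CPM against 848 to 1815. Guca2a, guanylin, a peptide that regulates salt and water secretion, was 464, 97.4, 406 and 309.7 CPM against 597 to 1205 (median 1128), and fell by 1.68 ± 0.43 (adjusted p = 0.0289). The call was lost without PBS sample 2, 5, 6 or 7 or B. thetaiotaomicron sample 3 (adjusted p 0.0527 to 0.0742). Fabp2 and Alpi belong to other lists, those of lipid absorption and of the small intestine. Fabp2 was 43.1, 13.0, 41.9 and 45.0 CPM against 133 to 294 (median 243), and 327, 315 and 309 in the lowest libraries. Fabp2 fell by 2.62 ± 0.40 (adjusted p = 0.00289), with PBS sample 3 lowest and no overlap. Alpi, intestinal alkaline phosphatase, was 5.25, 1.14, 2.67 and 3.54 CPM against 14.8 to 41.4 (median 29.2), and fell by 3.18 ± 0.41 (adjusted p = 0.00106).

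Of 16 lipid absorption genes 5 rose and 2 fell (median 0.11), and the number of rises was 2 or 3 without any 1 library but B. thetaiotaomicron sample 7. Plin2, a lipid droplet coat protein, rose by 0.77 ± 0.16 (adjusted p = 0.00713). In the list of short-chain fatty acid use and ketogenesis, 3 of 22 rose and 6 fell (median 0.01). Slc16a1, the monocarboxylate transporter that carries butyrate, was 433, 504, 493 and 473 CPM against 301 to 415 (median 352), a rise of 0.46 ± 0.08 (adjusted p = 0.00127). Pparg, a fatty acid-sensing nuclear receptor, fell by 0.47 ± 0.07 (adjusted p = 0.000665). Among 24 cholesterol synthesis genes 1 rose and 3 fell (median -0.15), with 2 rises without PBS sample 2 or 5 or B. thetaiotaomicron sample 3 or 7. Over all genes 9.56% rose and 9.86% fell.

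Genes of retinoic acid metabolism went both ways, with 4 of 20 higher and 9 lower (median -0.29). Aldh1a1, which makes retinoic acid, was 56.7, 61.3, 49.8 and 54.1 CPM against 87.1 to 206 (median 138), and fell by 1.41 ± 0.16 (adjusted p = 0.000344). Lrat, which stores retinol as esters, was 1.83, 0.602, 1.87 and 1.25 CPM against 4.15 to 18.3 (median 9.80), and fell by 3.13 ± 0.40 (adjusted p = 0.000533). Rbp2, the intestinal retinol-binding protein, was 51.1, 54.6, 54.1 and 36.6 CPM against 8.43 to 25.1 (median 11.5), a rise of 1.83 ± 0.31 (adjusted p = 0.00401). None of the 3 overlapped. Isx, an intestinal homeobox gene that represses vitamin A uptake, fell by 3.06 ± 0.54 (adjusted p = 0.00557).

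Vitamin D and calcium genes leaned up, with 4 of 8 higher and 1 lower (median 0.33). Vdr, the vitamin D receptor, was 431, 484, 475 and 525 CPM against 299.6 to 442 (median 348), a rise of 0.49 ± 0.10 (adjusted p = 0.00379). Trpm6, a magnesium channel, was 461, 482, 567 and 297 CPM against 73.6 to 206 (median 173), a rise of 1.54 ± 0.33 (adjusted p = 0.0128). S100g, the calcium carrier calbindin-D9k, was 23.1, 20.3, 32.4 and 4.02 CPM against 0 to 2.68 (median 0.0633), and 8.51, 0.283 and 0.0682 in the lowest libraries. Every distal library lay above every middle one in S100g, which rose by 4.75 ± 1.04 (adjusted p = 0.0140). Trpv6, the apical calcium channel, was 4.26, 4.82, 1.2 and 5.20 CPM against 0 to 3.68 (median 0.477). It rose by 3.02 ± 0.85 (adjusted p = 0.0345) with overlap, and lost the call without PBS sample 1, 2, 3, 6 or 7 or B. thetaiotaomicron sample 1 or 6 (adjusted p 0.0596 to 0.0729). Slc8a1, a sodium-calcium exchanger, fell by 1.28 ± 0.15 (adjusted p = 0.000279).

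Of 28 drug metabolising enzymes 6 rose and 5 fell (median 0.13), with 3 rises left without PBS sample 2 or B. thetaiotaomicron sample 3. Cyp2c65, a cytochrome P450 of the gut, was 5.02, 4.34, 0.868 and 3.12 CPM against 37.8 to 155 (median 60.2), and 429.9, 250.4 and 144 in the lowest libraries. It fell by 4.57 ± 0.55 (adjusted p = 0.00102), and its counts could be shared with other Cyp2c genes. Adh1, alcohol dehydrogenase, was 814, 1009, 887 and 827 CPM against 179 to 629 (median 220.4), a rise of 1.76 ± 0.38 (adjusted p = 0.0129). Cyp2c55 did not pass (-0.91 ± 0.57, adjusted p = 0.324), and its estimate was -0.35 without PBS sample 7 and -1.47 without B. thetaiotaomicron sample 3. Among 11 bile acid genes 4 rose and 2 fell (median 0.35), and the falls numbered 0 or 1 without PBS sample 1, 2, 3, 5 or 7 or B. thetaiotaomicron sample 1, 3 or 6.

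Smooth muscle genes were lower in the distal libraries. All 22 smooth muscle genes had fold changes below 0 and 13 of them passed, with a median of -0.43. Their summed level was 6307 to 9195 CPM in the distal and 9026 to 12514 in the middle libraries, and 7988 to 11426 in the lowest. Des, the muscle intermediate filament desmin, was 785, 675, 602 and 409 CPM against 798 to 1244 (median 928), and fell by 0.79 ± 0.15 (adjusted p = 0.00335). Mylk, myosin light chain kinase, was 334, 407, 297 and 309 CPM against 418 to 528 (median 481), and fell by 0.50 ± 0.08 (adjusted p = 0.00107). Neither gene overlapped, although PBS sample 1 came close to the middle range for Des. With Hoxb13 as a continuous measure over 14 libraries the estimate for Des was 0.0134. Without B. thetaiotaomicron sample 3, the lowest library for Des, 7 of the 22 passed.

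Interstitial cells of Cajal, the pacemakers of gut movement, gave 4 falls and 2 rises among 7 genes (median -0.35). Kit, the receptor they depend on, was 61.2, 53.6, 65.3 and 61.4 CPM against 87.0 to 129 (median 117), and fell by 0.86 ± 0.11 (adjusted p = 0.000251). Ano1, their chloride channel, was 266, 250.2, 269 and 291 CPM against 137 to 219 (median 169), a rise of 0.76 ± 0.10 (adjusted p = 0.000242). Thbs4, an extracellular matrix protein, was 318, 329, 328 and 303 CPM against 148 to 250.1 (median 177), and 20.2, 64.5 and 105 in the lowest libraries, a rise of 0.88 ± 0.13 (adjusted p = 0.000872). Kit and Ano1 moved in opposite directions without overlap. Ano1 and Thbs4 are also made by cells other than those of Cajal.

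Enteric neuron genes fell in 8 of 26 cases (median -0.46), and their summed level was 114 to 147 CPM in the distal and 156 to 221 in the middle libraries. Vip, a relaxing neuropeptide, was 19.4, 17.2, 15.5 and 19.7 CPM against 22.9 to 32.9 (median 26.0), and 50.5, 33.6 and 31.9 in the lowest libraries. It fell by 0.55 ± 0.12 (adjusted p = 0.00453) with no overlap. Ret, a receptor needed to build the enteric nervous system, fell by 0.58 ± 0.12 (adjusted p = 0.00402), and Tac1, the substance P precursor, fell by 0.75 ± 0.14 (adjusted p = 0.00176). Of 9 glial genes 2 fell, Gfap and Cryab (median -0.11), and neither passed without B. thetaiotaomicron sample 3 (Gfap adjusted p = 0.146, Cryab 0.0630). Gfap also missed without PBS sample 2 or 5. Of 32 fibroblast and matrix genes (median -0.03) 1 rose, Eln, elastin, by 0.71 ± 0.17 (adjusted p = 0.0146), and 2 fell, Col12a1 and Fbln1. These shares were under the 9.56% higher and 9.86% lower over all genes. Both falls were lost without B. thetaiotaomicron sample 3 (adjusted p 0.0728 and 0.121). The count of rises was 4 without PBS sample 5. Fbln1 also missed without PBS sample 2, 3, 5, 6 or 7 or B. thetaiotaomicron sample 6.

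**Figure D4:**
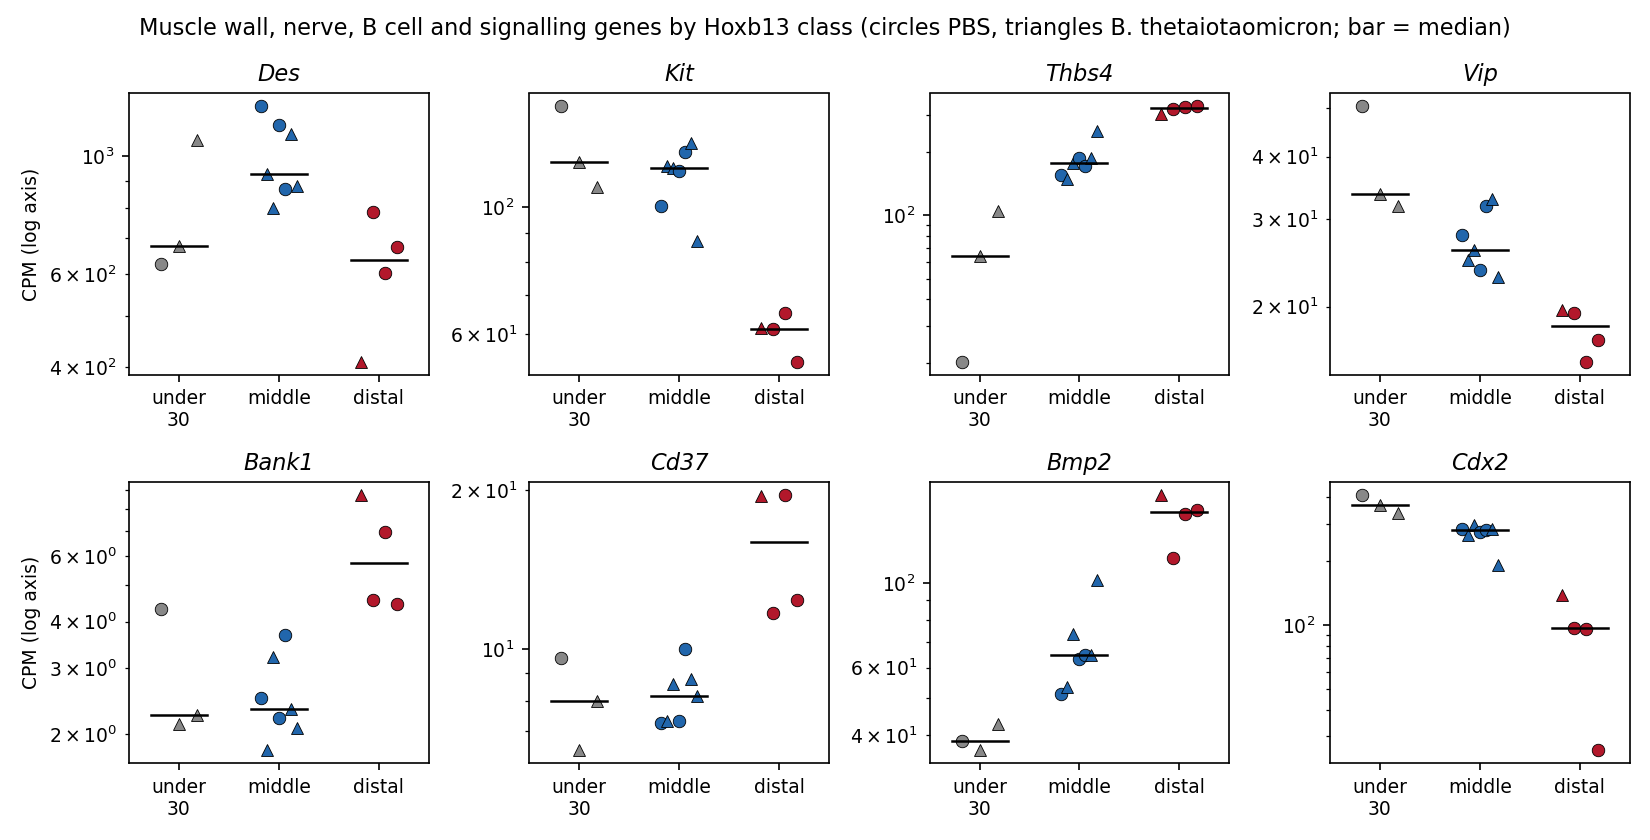
CPM (log axes) of 8 muscle wall, nerve, B cell and signalling genes in each library by class; circles are PBS, triangles B. thetaiotaomicron and bars medians. Des, Kit, Vip and Cdx2 are lower, and Thbs4, Bank1, Cd37 and Bmp2 higher, in every distal library than in every middle one.

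B cell and lymphoid follicle genes were the list that leaned most towards the distal libraries among those with 7 or more tested members. Of 19 tested, 13 rose, with a median of 1.07, and 18 had fold changes above 0. The summed level was 136 to 258 CPM in the distal, 70.7 to 152 in the middle and 66.8 to 127 in the lowest libraries. Cd37, a membrane protein of B cells, was 11.7, 12.4, 19.6 and 19.5 CPM against 7.26 to 10.01 (median 8.17), a rise of 1.03 ± 0.16 (adjusted p = 0.000773). Bank1, a scaffold protein of B cell receptor signalling, was 4.56, 4.46, 6.95 and 8.73 CPM against 1.81 to 3.69 (median 2.33), a rise of 1.34 ± 0.24 (adjusted p = 0.00163). Neither gene overlapped, and PBS sample 7 was the highest middle library in both. The number of rises was 3 without B. thetaiotaomicron sample 3, 6 without PBS sample 5, 7 without PBS sample 6 or B. thetaiotaomicron sample 1 or 6, and 8 without PBS sample 2 or B. thetaiotaomicron sample 5.

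Of 11 plasma cell genes 1 rose, Pigr, the epithelial receptor that exports IgA, by 0.44 ± 0.10 (adjusted p = 0.00576), and 4 fell (median -0.04). Pigr was 6657, 5485, 6590.0 and 5758 CPM against 3962 to 5452 (median 4391), with PBS sample 3 close to the middle range. The falls included Fkbp11, a chaperone of secretory cells, which fell by 1.15 ± 0.20 (adjusted p = 0.00122), and 2 of the 4 were lost without PBS sample 1, 2, 3 or 6 or B. thetaiotaomicron sample 1, 3 or 6. Among 27 macrophage and dendritic cell genes only Cd14 passed (0.39 ± 0.12, adjusted p = 0.0320; median of the list -0.07). Cd14 missed without PBS sample 1, 5, 6 or 7 or B. thetaiotaomicron sample 3 (adjusted p 0.0745 to 0.112), and 4 members were lower without PBS sample 7, 2 without B. thetaiotaomicron sample 3 and 1 without B. thetaiotaomicron sample 5 or 7.

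Of 23 T and innate lymphoid cell genes 2 rose and 2 fell (median -0.45), no more than the 9.56% and 9.86% over all genes. Of the rises, 1 was lost without PBS sample 5 or 6 or B. thetaiotaomicron sample 3, and the falls numbered 0 or 1 without any 1 library but PBS sample 5 and B. thetaiotaomicron sample 7. Among 10 neutrophil and mast cell genes 1 rose and 1 fell (median -0.99), close to the shares over all genes. The rise was Ly6g, at 228, 191, 303 and 199 CPM against 23.3 to 119.6 (median 56.0) and 0.332, 23.9 and 23.8 in the lowest libraries (2.10 ± 0.44, adjusted p = 0.0124). Other neutrophil genes were low in the same libraries: S100a8 was 0 to 0.693 CPM in the distal and 0 to 3.42 in the middle, and Cxcr2 was 0 to 1.11 and 0.179 to 6.01. Reads of Ly6g could be shared with other Ly6 genes. The fall of that list was lost without PBS sample 1, 2, 3, 5 or 6 or B. thetaiotaomicron sample 1, 3, 6 or 7, and 2 members rose without PBS sample 1 and 2 fell without PBS sample 7.

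None of 31 interferon response genes passed in edgeR, 0 had an unadjusted p under 0.05, and 0 were called by DESeq2 or limma-voom (median -0.23). Their summed level ran from 674 to 5336 CPM in the distal and from 2344 to 5163 in the middle libraries. Of 21 endothelial genes 3 rose (median 0.09), the lymphatic genes Flt4, Mmrn1 and Ccl21a, by 0.30 ± 0.09, 0.30 ± 0.10 and 0.28 ± 0.08 (adjusted p = 0.0333, 0.0395 and 0.0311). All 3 were lost without PBS sample 6 or B. thetaiotaomicron sample 3, 1 remained without PBS sample 1 or 2 or B. thetaiotaomicron sample 1, and with library totals as the only scaling 0 passed.

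Of 34 regional transcription factors other than Hox genes 2 rose and 9 fell, and the other 23 did not pass (median -0.12). The share that rose was under the 9.56% over all genes. The rises numbered 4 without B. thetaiotaomicron sample 7 and the falls 5 without PBS sample 2. Evx2 was 4.56, 11.7, 1.47 and 3.26 CPM against 0.187 to 1.07 (median 0.470), and 0 in all 3 lowest libraries. It rose by 3.02 ± 0.58 (adjusted p = 0.00449), lies beside Hoxd13, and had PBS sample 3 highest and PBS sample 5 lowest of the distal libraries, as Hoxd13 did. Cdx2, a master regulator of intestinal identity, was 96.9, 25.7, 96.1 and 139 CPM against 192 to 295 (median 279), and 411, 369 and 339 in the lowest libraries. It fell by 1.49 ± 0.39 (adjusted p = 0.0312) with no overlap, but missed the threshold without PBS sample 1, 2, 5, 6 or 7 or B. thetaiotaomicron sample 1 or 6 (adjusted p 0.0507 to 0.0684). Foxd2 fell by 0.43 ± 0.08 (adjusted p = 0.00194).

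Of 36 Wnt, BMP and hedgehog genes 6 rose and 6 fell (median -0.11), and 3 fell without B. thetaiotaomicron sample 3. Bmp2, a growth factor of the crypt surface, was 116, 155, 152 and 170.0 CPM against 51.2 to 102 (median 64.6), and 38.7, 36.5 and 42.7 in the lowest libraries, a rise of 1.27 ± 0.17 (adjusted p = 0.000978). Bmp8b was 1.06, 0.361, 0.468 and 1.66 CPM against 4.29 to 14 (median 12), and fell by 3.45 ± 0.50 (adjusted p = 0.00128). Neither gene overlapped. Shh, sonic hedgehog, was 0.228, 0.0602, 0.134 and 0.139 CPM against 0.376 to 1.58 (median 1.0), and fell by 2.93 ± 0.53 (adjusted p = 0.00163). Sfrp1, a secreted Wnt antagonist, fell by 0.45 ± 0.09 (adjusted p = 0.00261).

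Of 19 clock genes 3 rose and 1 fell (median 0.31), with 8 rises without B. thetaiotaomicron sample 7 and 0 falls without B. thetaiotaomicron sample 3. Clock rose by 0.31 ± 0.06 (adjusted p = 0.00369) and Bhlhe40 by 0.37 ± 0.08 (adjusted p = 0.00656). Among 21 immediate early and heat shock genes 2 rose and 1 fell (median -0.17), no more than the 9.56% and 9.86% over all genes. Junb rose by 0.34 ± 0.06 (adjusted p = 0.00223), and Jun fell by 0.59 but not past the threshold without B. thetaiotaomicron sample 3 (adjusted p = 0.0745). The rises numbered 1 without PBS sample 3 or 6, and the falls 2 without PBS sample 1, 2 or 7.

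Neighbouring tissues were checked by their markers. Of 17 squamous markers of the anal canal and skin, 16 were under 1 CPM, 4 were 0 in all 11 libraries and 0 of 2 tested passed in edgeR, at an unadjusted p under 0.05, in DESeq2 or in limma-voom. Krt5 reached 0.0668 CPM in the distal libraries and Trp63 0.120. Summed, the squamous list was 5.10 to 5.89 CPM in the distal and 2.53 to 4.69 in the middle libraries, and 5.38 to 6.09 in the lowest. Skeletal muscle markers (6 tested) gave Myh2 higher and Ckm lower, and their sum was 9.84 to 14.7 against 10.5 to 17.2 CPM. Of 10 adipocyte genes 0 passed in edgeR, at an unadjusted p under 0.05, in DESeq2 or in limma-voom (median 0.40), although 4 were higher without PBS sample 5. Of 4 prostate and bladder markers only Spink1, also made in the gut, rose, by 1.42 ± 0.21 (adjusted p = 0.00212), and Pbsn was 0 in every distal library. Among 5 small intestinal genes 3 rose, with Slc5a1, the sodium-glucose transporter, up by 0.67 ± 0.09 (adjusted p = 0.000351), and 1, Alpi, fell. Of 5 red cell genes 0 passed in edgeR, DESeq2 or limma-voom and 1 had an unadjusted p under 0.05, and 1 was lower without B. thetaiotaomicron sample 7.

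**Figure D5:**
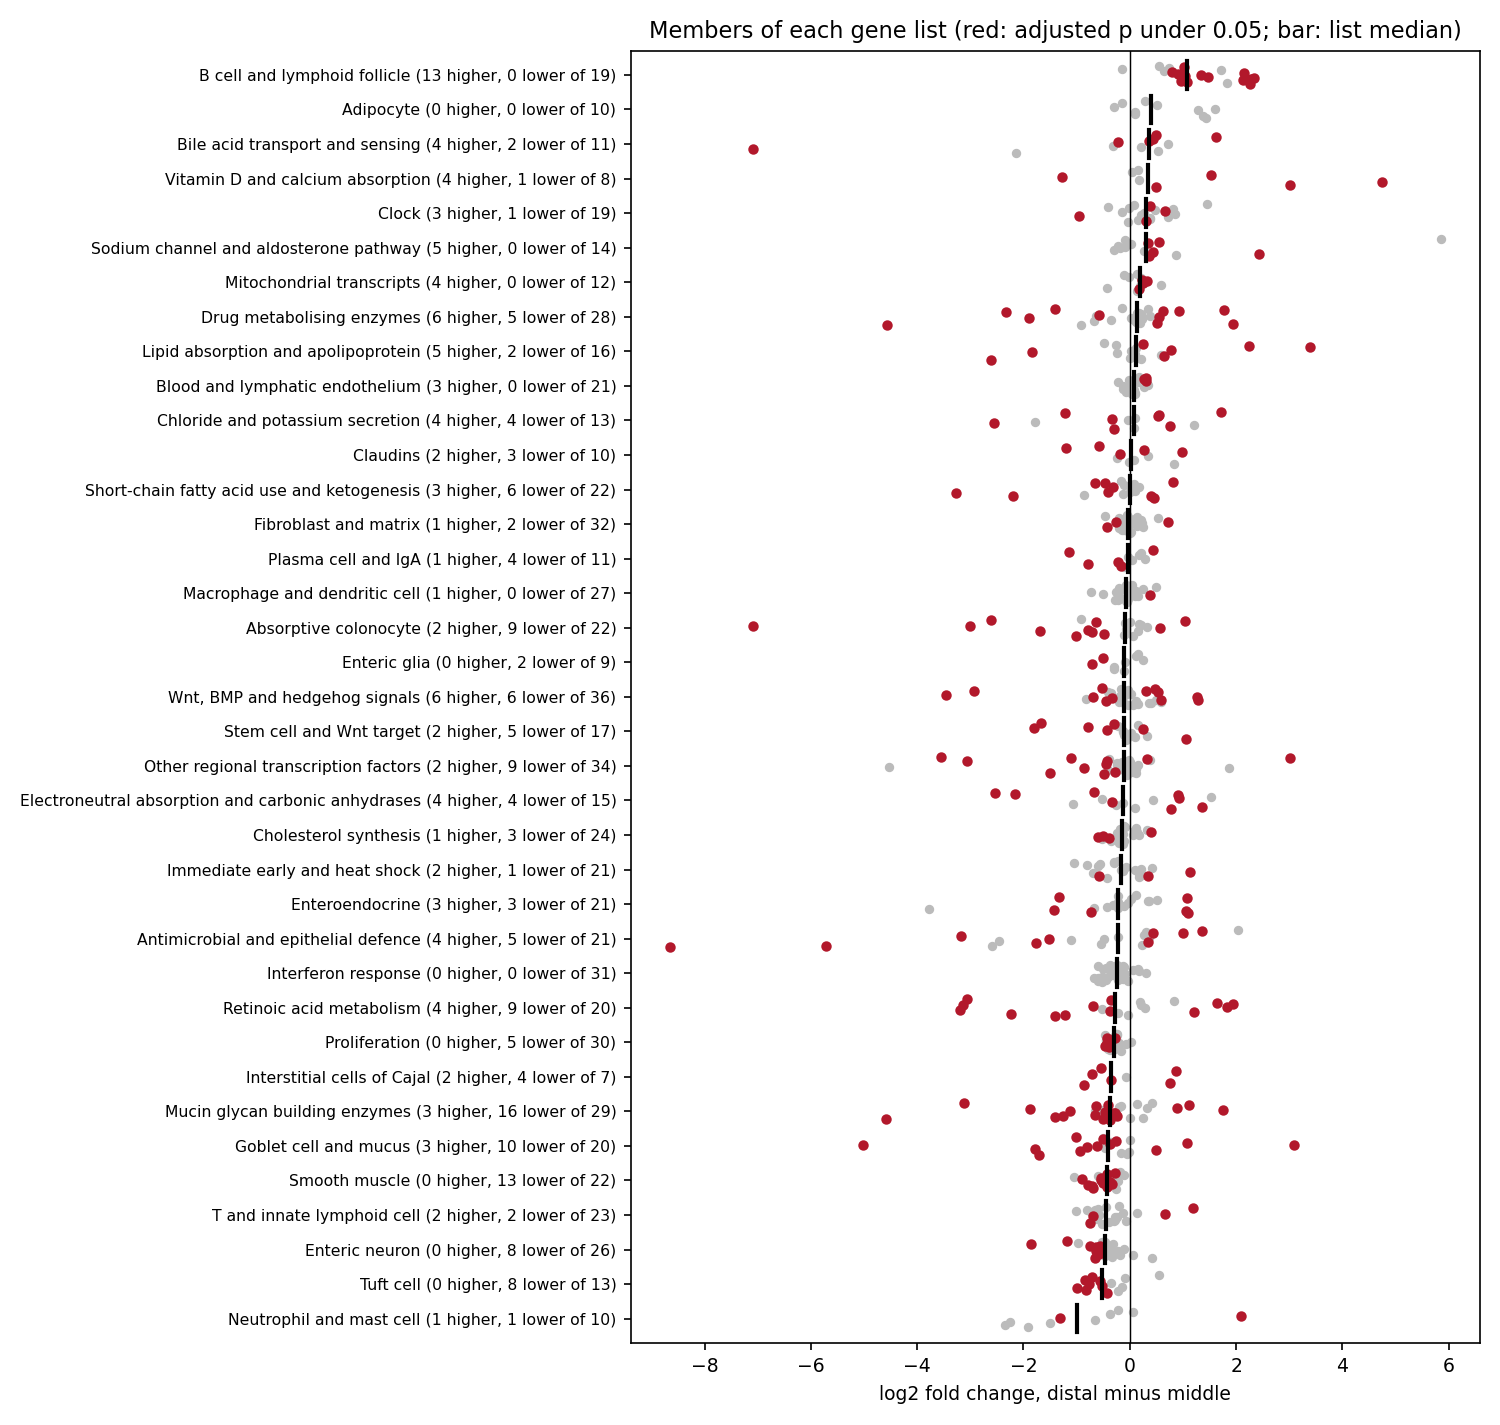
Log2 fold change, distal minus middle, of each tested member of the gene lists with 7 or more tested members; red points passed an adjusted p of 0.05, grey points did not, and bars are list medians. B cell genes (median 1.07) lie to the right, and smooth muscle genes (median -0.43) lie to the left with no member above 0. Medians were lower still for neutrophil and mast cell (-0.99), tuft cell (-0.53), enteric neuron (-0.46) and T and innate lymphoid cell genes (-0.45).

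Whether the classes differed alike under both gavages could hardly be asked, since 1 distal library had been given the bacterium. The interaction of class and gavage passed for 1 gene, Cenpe, a motor protein of chromosome alignment, with a log2 estimate of 1.13 (adjusted p = 0.0391), and 772 genes had an unadjusted p under 0.05. In that test gavage and B. thetaiotaomicron sample 3 cannot be told apart. In PBS libraries alone, 3 against 3, 1906 genes passed. There 5 smooth muscle genes fell, 2 B cell genes rose, 4 absorptive colonocyte genes fell and 20 proliferation genes fell.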

How the data were processed

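RNA from 14 colon samples was purified on columns and made into libraries with a SMARTER mRNA-seq kit, per the labels' protocols. The authors deposited raw read counts per gene, with FPKM values that were not used here. The submitters' processing notes name GRCm38 and mm10, with aligner, counting program and strand setting not given in the sources used here. CPM was computed from the deposited counts. Genes were kept with filterByExpr (minimum count 10, minimum total 15), scaled by TMM and tested with edgeR 4.0.16's robust quasi-likelihood test (R 4.3.3) with class and gavage as terms and Benjamini-Hochberg adjustment over all 14287 genes tested, 23 of them Hox genes. A call is an adjusted p under 0.05. The steps were tested on simulated data. Alternatives used DESeq2 1.42.0, limma 3.58.1, other scalings, filters, classes and libraries left out.

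The text names the 10 genes of smallest p per direction and up to 3 per gene list. These had a mean of at least 5 CPM in the higher class. With a set of genes known from colon biology they make 131. A further 25 were added with their values in view. They include those of the 5 genes ranking most like Hoxb13 that were not already named. A few genes are not reported here. The class rule, the gene lists and the tests were chosen with earlier results of these data known. Most sample titles call the sample a biological replicate. No label says whether the samples came from separate animals, so what the spread behind each p-value covers is not known. Counts of close relatives and of overlapping or antisense genes may be shared. Each of the 91 possible pairings of libraries exceeded sampling noise (mean chi-square per gene 9.58 to 116). Permutation tests of library totals and mitochondrial share enumerated all 330 arrangements, with no gavage term.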

Additional observations from a re-analysis of the deposited data

Results flagged for a closer look

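In 306 sets of values (156 named genes, distal and middle libraries apart), 29 held a value far from the others of its class. Chance flags about 1 in 20 such sets. All values are CPM.

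B. thetaiotaomicron sample 7, the middle library nearest to the upper limit, stood apart 16 times, above the other middle libraries for 12 genes and below them for 4. It was high for Wfdc2 (181), Cela1 (173), Reg4 (85.5), Adh1 (629), B4galnt3 (87.7), Car2 (1148), Ebp (74.9), Fam8a1 (144), Ly6g (119.6), Plin2 (164), Snx25 (50.3) and Thbs4 (250.1). It was low for Cdx2 (192), Chn2 (17.5), Slc8a1 (60.3) and Cck (2.55).

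PBS sample 3 stood apart from the other distal libraries for 6 genes. It was high for Bhlhe40 (153), Junb (187) and Car1 (1489), and low for B4galnt2 (59.1), Fabp2 (13.0) and Kcnk6 (31.9). B. thetaiotaomicron sample 3 was high for Cdc20 (51.4).

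PBS sample 7 was the high middle library for Car1 (2611), Cyp2c55 (504) and Cyp2c65 (155). PBS sample 2 was high for Retnlb (528) and Tac1 (17.8), and B. thetaiotaomicron sample 6 was high for Cldn23 (107).

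Cenpe passed the test of an interaction between class and gavage, at 1.13 on the log2 scale (edgeR's quasi-likelihood test, adjusted p = 0.0391). With 1 distal library from the bacterium arm, B. thetaiotaomicron sample 3, gavage and that library cannot be told apart.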

How the results depend on the processing

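Of 3893 values of 156 named genes under 25 alternatives, 3451 kept direction and side of the threshold, 424 kept direction but lost the call, 8 gained it and 10 changed sign. Against 2769 calls, other scalings, filters and tools gave 2447 to 3174, PBS libraries alone 1906, Hoxb13 as a continuous measure 1950, and leaving out 1 library 2088 (PBS sample 2) to 2990 (B. thetaiotaomicron sample 7), with 1018 to 1481 higher and 1067 to 1509 lower. These were not all the same genes: of the 2769, 1675 also passed in PBS libraries alone and 1035 with Hoxb13 as a continuous measure. Under the continuous measure 2622 of the 2769 kept their direction. An adjusted p of 0.01 left 1401 calls, 675 higher and 726 lower. With the replicate number as a block, 24 genes passed, 9 higher and 15 lower. The block takes up most of the residual degrees of freedom. The labels do not say whether the numbers pair the samples. Residual correlations between libraries of the same number ran from -0.451 to 0.0812. They rest on few pairs and on residuals after class and gavage were fitted, so they cannot decide this. The block moved Slc9a3 to 0.0535 and changed the sign of no other named gene. With Hoxb13 as a continuous measure the log2 estimates of Aqp4 (0.37), Col12a1 (0.0589), Cryab (0.0475), Fbln1 (0.0215), Slc9a3 (0.0824), Des (0.0134), Mki67 (0.0174) and Sar1b (-0.0136) changed sign. Car1 ranged from -0.93 to 0.18 on leaving out 1 library. The cause was not tested. Depth was alike across classes, and genes near 1 CPM, such as Shh and Trpv6, rest on few reads.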
